A study of Mus musculus with 13 samples.

Results

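This report describes the newly made RNA captured from the kidneys of control mice given no iron. Its members are the 5 libraries titled Spns1-WT Control 1 to 5 in the deposited gene table, here WT 1 to WT 5, out of 13 libraries in the series. They were chosen by their titles alone, and no level in them is set against a treated or knockout group. All 5 came from kidney of female mice with the treatment label Control, that is without the iron injections given to another group. By the study's methods these mice, of the C57Bl6 strain, were Megalin3'Cre-Ert; Spns1 flox/+; Uprt flox/+, so that they carried a tamoxifen-dependent Cre, 1 floxed Spns1 allele and 1 allele of uracil phosphoribosyltransferase (UPRT) behind a floxed stop, whereas the sample labels give their genotype only as Spns1 WT. Megalin, encoded by Lrp2, drives the Cre, so UPRT was meant to be made in proximal tubule cells alone. By the same methods tamoxifen was given to these mice as well as to the knockouts, so the floxed Spns1 allele was exposed to active Cre. The labels do not say whether each library is 1 mouse, and the mice's age is not given in the sources used here.

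UPRT joins 4-thiouracil to a ribose phosphate, and a cell that has the enzyme builds the product into the RNA it makes in the hours after 4-thiouracil is given. The thiol groups were then linked to biotin, the tagged RNA was held on streptavidin beads, and poly-A selection followed. The proximal tubule (PT) is the part of the nephron that reclaims most of the filtered glucose, amino acids, phosphate, bicarbonate and protein. It runs from S1 next to the glomerulus through S2 to the straight S3 segment, makes glucose and ammonia, and lives mainly on fatty acids burnt in its many mitochondria. Behind it lie the thin limb, the thick ascending limb, the distal convoluted tubule, the connecting tubule and the collecting duct with its principal and intercalated cells. Neither unbound RNA nor RNA of mice without the tag is among the 5 libraries, so a level here is the makeup of the captured RNA and not an enrichment over the whole kidney. In such bulk libraries fewer cells of a type and less RNA per cell cannot be told apart.

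A part of the most abundant captured RNA came from sequences that the mouse genome holds more than once. The mitochondrial genes mt-Co1 and mt-Co2, which encode subunits of cytochrome c oxidase, have copies on chromosome 1 that are annotated as the pseudogenes Gm29216 (chr1:24615706-24616197) and Gm28661 (chr1:24614885-24615565) on the minus strand of GRCm38. Stretches of both pairs are shown because they set how far the counts of each can be trusted. They were read from the GENCODE transcripts, with positions counted from 1 at the transcript's start and with capitals at bases that differ within a pair.
mt-Co2, bases 101 to 160: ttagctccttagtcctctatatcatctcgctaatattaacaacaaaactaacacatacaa
Gm28661, bases 101 to 160: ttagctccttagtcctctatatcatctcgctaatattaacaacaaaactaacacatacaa
mt-Co1, bases 1054 to 1113: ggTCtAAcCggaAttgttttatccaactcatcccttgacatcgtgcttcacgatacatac
Gm29216, bases 1 to 60: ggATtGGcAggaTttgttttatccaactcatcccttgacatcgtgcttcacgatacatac
All 681 bases of Gm28661 occur unchanged in mt-Co2, which has 684. Gm29216 has 492 bases and differs from mt-Co1 at 6 of them, all near its start, and these are T1056A, C1057T, A1059G, A1060G, C1062A and A1066T in the numbering of mt-Co1. Over the last 479 bases the pair is identical. Reads from the shared stretches fit both members of a pair, so the counts of each alone are uncertain while those of the pair together are not affected by the split.

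The libraries held 23068023 to 37362311 estimated counts (median 29730591). A level below is either CPM, counts per 1000000 of the library total, which serves to follow 1 gene across libraries, or TPM, which also divides by the gene's median annotated transcript length and serves to compare genes. Of 35013 gene symbols, 22914 had a count in at least 1 library and 13402 reached 1 CPM in all 5. WT 1 and WT 2 were by far the most alike, with a chi-square per degree of freedom of 8.61 between their counts against 41.2 to 225 in the other 9 pairs. Their difference was above counting noise, which does not show that they came from separate mice. Both labels were kept as libraries, and values with the pair averaged as 1 library are given at the end. WT 4 stood apart. It held the highest level of 1850 (43.6%) of the 4246 genes with a mean of at least 50 CPM, and the variation between libraries (common biological coefficient of variation, edgeR) was 0.199 with it and 0.157 without it. The mean transcript length behind a nuclear protein-coding count, taking each gene's longest transcript, was 4992, 5099.8, 5377, 5534 and 4976 bases in WT 1 to WT 5, so WT 3 and WT 4 drew more of their counts from long transcripts; its part in the differences between libraries was not tested.

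The 5 tubule markers were all present in each library, 4 of them from the proximal tubule. Slc34a1, the main phosphate transporter of the proximal brush border (GRCm38, chr13:55398187-55415592), was at 2099.6, 1872, 1558, 1327 and 1464 CPM in WT 1 to WT 5. Kap, an androgen-responsive protein of the proximal tubule (chr6:133849851-133853762), was at 1020.4, 1084, 1001, 898 and 891 CPM in WT 1 to WT 5. Lrp2, the endocytic receptor megalin that also gives the Cre its pattern (chr2:69424340-69586065), was at 545, 549, 806, 696 and 649 CPM in WT 1 to WT 5. Slc34a1 was highest in WT 1, Lrp2 in WT 3, and Kap differed least between libraries on this scale. Without mitochondrial genes and their copies in the total, Kap no longer differed least. The highest library over the lowest was then 1.36 for Kap, 1.35 for Lrp2 and 1.31 for Umod. Slc5a2, the glucose transporter of early proximal tubule (SGLT2, chr7:128265657-128272430), was at 169.6, 155, 109, 80.6 and 115 CPM in WT 1 to WT 5. Umod, the uromodulin that the thick ascending limb secretes (chr7:119462711-119479282), was at 461, 477, 581, 688 and 553 CPM in WT 1 to WT 5. Slc5a2 was lowest and Umod highest in WT 4, while in WT 1 Slc5a2 was highest and Umod lowest. Per length the order was Kap (1953 ± 141 TPM, SD, n = 5), Slc34a1 (1251 ± 199.8 TPM), Umod (966 ± 196 TPM), Lrp2 (231 ± 46.1 TPM) and Slc5a2 (188 ± 48.1 TPM). Kap exceeded Slc34a1 and Umod exceeded Lrp2 in all 5 libraries, with either transcript length. Slc34a1 and Umod overlapped, with the former ahead in 4 of 5, and Lrp2 and Slc5a2 were not separated (3 of 5). A marker of the thick ascending limb, a segment outside the intended Cre domain, thus stood 3.54 to 4.85 times above megalin per length. Spns1, the lysosomal transporter that the study deletes in its knockout group (chr7:126370060-126377450), was at 56.3, 61.6, 61.5, 40.8 and 70.6 CPM in WT 1 to WT 5. These levels come from mice with 1 floxed Spns1 allele by the study's methods, and WT 4 was the lowest.

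**Figure D1:**
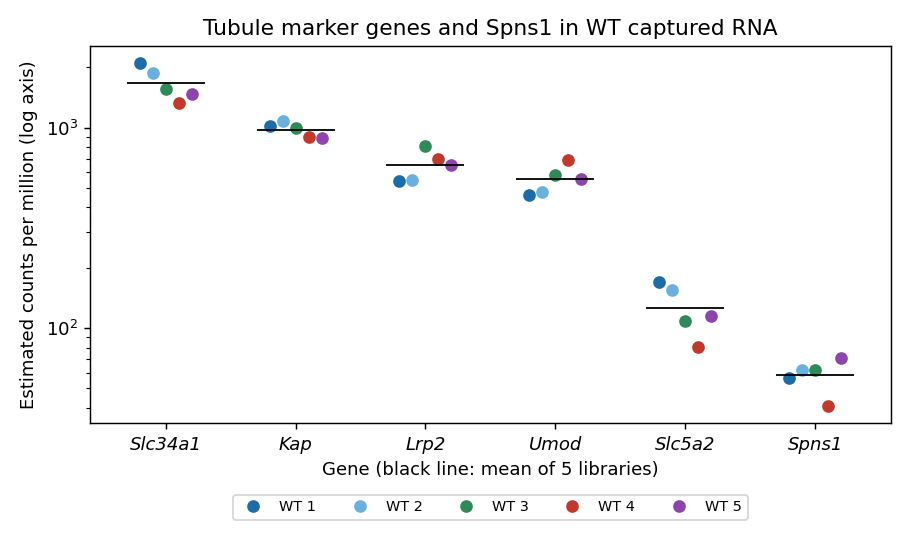
Estimated counts in CPM (log axis) of the 5 tubule markers and Spns1 in WT 1 to WT 5, with 1 point per library and a black line at the mean. Slc34a1 and Slc5a2 are lowest and Umod is highest in WT 4, while Kap varies least on this scale, which keeps mitochondrial genes in the total.

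Most captured RNA was from nuclear protein-coding genes, which held 75.9 to 86.8% of the counts. The 13 mRNAs of the mitochondrial genome, all of them subunits of the respiratory chain or ATP synthase, held 21.6, 20.5, 14.2, 11.8 and 17% in WT 1 to WT 5, or 17 ± 4.13% (SD, n = 5). Their share was highest in WT 1 and lowest in WT 4. In WT 4, 12 of the 13 genes were lowest, against 24% of the 4246 genes with at least 50 CPM. Pseudogenes held 1.28 to 2.46%, of which the 7 mitochondrial copies on chromosome 1 made up 0.512 to 1.74% of all counts. With those copies added, the mitochondrial share was 23.3, 22, 15, 12.3 and 18.3%, in the same order of libraries.

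By counts the mitochondrial genes took the first 8 places of the whole table. mt-Co1 was at 39804, 35548, 26041, 25282 and 30411 CPM in WT 1 to WT 5. mt-Nd4, a subunit of complex I, was at 29102, 28851, 21257, 18025 and 23623 CPM in WT 1 to WT 5. mt-Cytb, the mitochondrial subunit of complex III, was at 29025, 28259, 19668, 15539 and 24556 CPM in WT 1 to WT 5. Each of these was higher in WT 1 and WT 2 than in the other libraries. Per length, mt-Atp6, a subunit of ATP synthase, came first with 32754 ± 9976 TPM, and it was above mt-Cytb (23755 ± 5075 TPM) in all 5 libraries. From mt-Cytb down to mt-Nd5 (10898 ± 2234 TPM) neighbours in the order overlapped, and no neighbour was ahead in all 5. mt-Nd3 and mt-Nd6 lay far below, with mt-Nd3 at 930.4 ± 262 TPM and mt-Nd6 at 192 ± 107 TPM. mt-Nd6 is the only mRNA encoded on the opposite strand from the rest, and it was at 148, 86.9, 34.2, 39.6 and 124 CPM in WT 1 to WT 5. The low counts of mt-Nd3 belong with those of its copy Gm28438, which shares 99% of its 31-base sequences with it and held 2.2 to 3.05 times its counts. For Gm28661 the ratio to mt-Co2 ran from 0.511 in WT 4 to 1.41 in WT 1, although their sequences are the same. Gm28437, whose 31-base sequences all occur in mt-Co3, varied from 0.00355 to 0.0763 of it. The captured libraries therefore allow a statement on the mitochondrial mRNAs together, but not on how the counts split within these pairs.

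**Figure D2:**
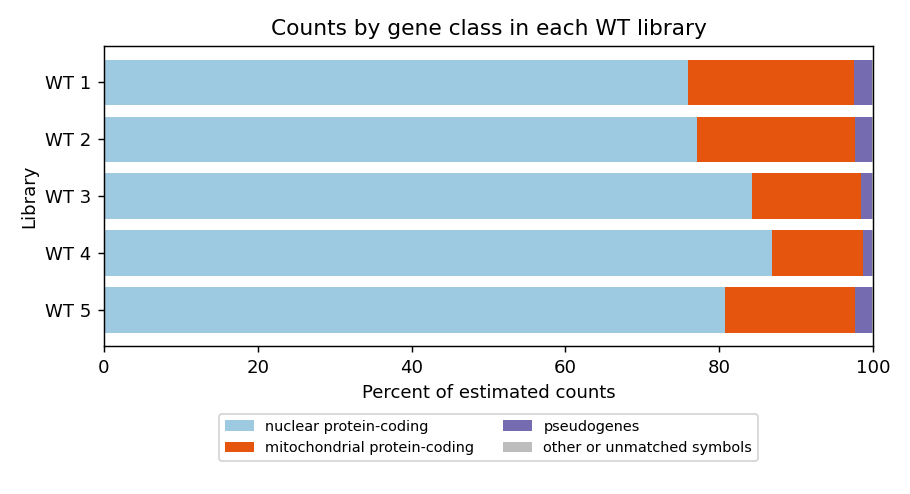
Percent of estimated counts in each WT library that fell on nuclear protein-coding genes, mitochondrial protein-coding genes, pseudogenes and other or unmatched symbols. The mitochondrial share runs from 11.8% in WT 4 to 21.6% in WT 1.

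Apart from the mitochondrial mRNAs, the gene with the most counts was Pck1, phosphoenolpyruvate carboxykinase, which commits the cell to making glucose (GRCm38, chr2:173153048-173159273). It was at 11764, 10863, 5817, 4889.9 and 9427 CPM in WT 1 to WT 5. WT 1, WT 2 and WT 5 were high, and WT 3 and WT 4 were low. Next among nuclear protein-coding genes came Chd9, a chromatin remodeller (mean 6570.1 ± 1641 CPM), and Tns1, the focal adhesion protein tensin (5166 ± 1110.3 CPM). Ndrg1, a stress-responsive protein (4355 ± 912 CPM), and Gpx3, the glutathione peroxidase that the proximal tubule secretes into plasma (3568 ± 704 CPM), were also among the first 20. Tfcp2l1, a transcription factor of distal tubule and collecting duct, was at 2437 ± 536 CPM. Atp1b1, the beta subunit of the sodium pump, was at 2375 ± 344 CPM. Glul, which makes glutamine, was at 1867 ± 206 CPM, and Slc5a3, the myo-inositol transporter that cells raise in salty surroundings, at 1523 ± 765 CPM. Wnk1 and Slc5a3 differed most between libraries among the first 20, with SDs of 0.504 and 0.502 times their means. Wnk1, a kinase that sets salt transport, was at 1031, 1241, 1996, 3343 and 1525 CPM in WT 1 to WT 5.

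**Figure D3:**
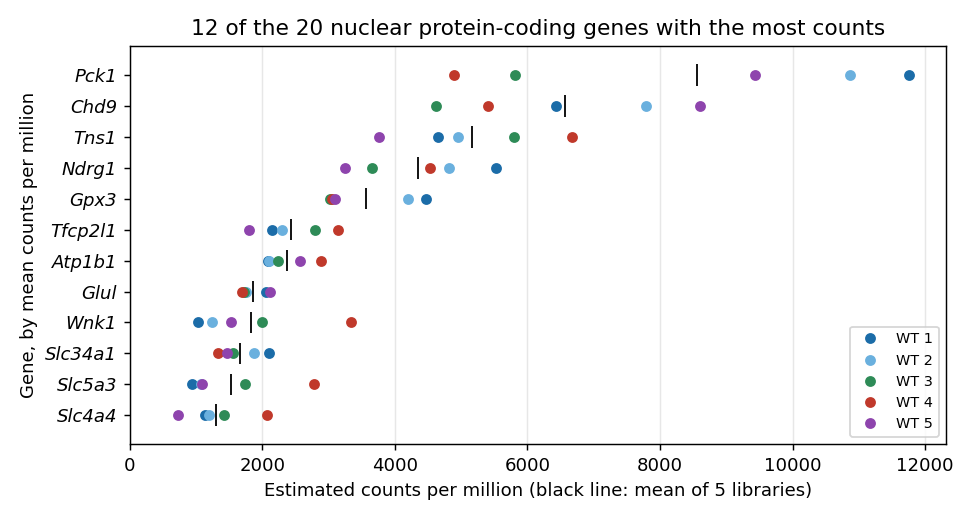
Estimated counts in CPM of 12 of the 20 nuclear protein-coding genes with the most counts in WT captured RNA, those named in the text, ordered by mean, with 1 point per library and a black line at the mean. Pck1 leads and spreads from 4889.9 in WT 4 to 11764 in WT 1.

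Length changed this order. Tns1 had a median annotated transcript of 685 bases but a longest one of 9966, and its level was 8865 ± 2209 TPM with the former and 1251 TPM with the latter. For Ndrg1 the values were 8597 ± 1684 TPM and 2529 TPM. Pck1 (5111 ± 1672 TPM, or 7158 TPM with the longest transcript) and Gpx3 (5009 ± 839 TPM, or 5218) stayed among the 20 highest genes of the table under both lengths. Tns1 and Ndrg1 left that group with the longest transcript. A ranking by counts, which are not divided by length, itself favours long transcripts. The 100 nuclear genes with the most counts had longer transcripts than the 13054 nuclear protein-coding genes at 1 CPM or more in all libraries, with a median of 4635 against 3524 bases. Their median content of U, the base that can carry the tag, was 25.7% against 25%, where the quartiles of the latter were 22.5% and 27.7%. The 100 highest genes of the whole table together held 35.1, 33.9, 26.7, 25.3 and 29.9% of the counts in WT 1 to WT 5.

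Genes used along the whole proximal tubule were high as a group. All 25 in the list were at 1 CPM or more in each library and 16 had a mean of at least 100 TPM. Their median level was 174 ± 21 TPM, against 19.3 ± 1.3 TPM over all 13362 genes with a length that reached 1 CPM in every library. Summed, they came to 22800.3, 21728, 16307, 16828 and 20489 TPM in WT 1 to WT 5. Pck1 (5111 ± 1672 TPM) and Kap (1953 ± 141 TPM) were among the leading members. Of the transporters, Slc34a1 led (1251 ± 199.8 TPM), followed by Slc4a4, the basolateral bicarbonate exit (533 ± 219 TPM), and Slc9a3, the sodium-proton exchanger (129.5 ± 37.5 TPM). Aqp1, the water channel, was at 89.9 ± 9.27 TPM and Slc3a1, a subunit of the cystine transporter, at 86.2 ± 10.2 TPM. The genes of protein uptake spanned a wide range. Dab2, the adaptor that binds megalin's tail, was at 287 ± 57.7 TPM, Lrp2 at 231 ± 46.1 TPM, Cubn, the cubilin that works with megalin, at 36.8 ± 11.6 TPM, and Amn, the membrane anchor of cubilin, at 14.2 ± 3.39 TPM. With the longest transcripts Dab2 (176 TPM) and Lrp2 (101) still stood above Cubn (35.3) and Amn (17). Of the enzymes, Slc27a2, which brings in and activates fatty acids, was at 898 ± 106 TPM, Miox, which breaks down inositol, at 310.3 ± 58.2 TPM, and Gatm, which makes the precursor of creatine, at 64.9 ± 27.7 TPM, with WT 4 far above the other libraries (37.3, 36, 35, 74.3 and 36.6 CPM in WT 1 to WT 5).

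The members did not move together between libraries. Dab2 was at 299, 296, 332, 434 and 341 CPM in WT 1 to WT 5. Cubn was at 133, 141, 169.8, 239 and 134 CPM in WT 1 to WT 5. Slc4a4 was at 1134, 1189, 1417, 2065 and 730.3 CPM in WT 1 to WT 5. These 3 were highest in WT 4. By contrast Khk, the ketohexokinase of fructose use, was at 295, 289.6, 179, 97.9 and 225 CPM in WT 1 to WT 5. Ggt1, the brush border enzyme that splits glutathione, was at 338, 331, 260.1, 153 and 208 CPM in WT 1 to WT 5. Both were lowest in WT 4. Over the 42 genes of the 4 proximal lists, 17 were highest and 12 lowest in WT 4. There 43.6% of the 4246 genes with at least 50 CPM were highest and 24% lowest, so these WT 4 counts are near those of genes at large. In WT 5, 3 of the 42 were highest and 18 lowest, against 25% and 18.4% of the 4246 genes. Slc4a4 and Cubn have longest transcripts of 7931 and 11262 bases and Khk and Ggt1 of 1583 and 2167; whether length had a part was not tested.

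The early S1 list was well represented. All 6 members passed 1 CPM in every library, with a median of 146 ± 16.2 TPM. Slc6a19, the neutral amino acid transporter, was at 301, 295, 281, 435 and 201 CPM in WT 1 to WT 5. Slc5a12, a lactate transporter, was at 208, 195, 284, 548 and 178 CPM in WT 1 to WT 5. Slc2a2, the basolateral glucose transporter GLUT2, was at 197, 191, 202, 280.1 and 184 CPM in WT 1 to WT 5. All 3 were highest in WT 4, where Slc5a2, another gene of the list, was lowest. The S2 genes were lower. Slc13a3, which takes up dicarboxylates, was at 139 ± 19.6 TPM, Slc22a8, the organic anion transporter OAT3, at 45.6 ± 3.0 TPM, and Slc22a6, the related OAT1, at 26.9 ± 5.5 TPM. The S2 median was below the S1 median in all 5 libraries, by 2.75 to 3.92 times with the median length and by 1.38 times on average with the longest transcript.

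The S3 list was split. Its sum of 1978 ± 369 TPM rested on Atp11a, a phospholipid flippase of wide expression (1266 ± 271 TPM, or 277 TPM with the longest transcript), and Slc6a18, a glycine and imino acid transporter (609 ± 148 TPM, or 583). The median over the 8 genes was only 13.6 ± 1.22 TPM. Slc5a8, the sodium-coupled monocarboxylate transporter, was at 56 ± 15.5 TPM, and Slc22a13, a urate and nicotinate transporter, at 14.7 ± 2.04 TPM, with 41.5% of its 31-base sequences shared with other genes. Slc7a13, a defining gene of S3 in male mice, was at 0.592 ± 0.513 TPM, the 1 member under 1 TPM, with 2.41, 1.79, 0.336, 0.882 and 0.0867 CPM in WT 1 to WT 5. The group of genes used late in the tubule was therefore not uniformly low or high in this RNA of female mice.

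The transcription factors of proximal identity were present in all libraries, with all 9 above 1 CPM. Hnf4a led and varied little between libraries, at 1184, 1079.5, 1245, 1103 and 942 CPM in WT 1 to WT 5. Pax8, needed for all nephron epithelium, was at 314 ± 88.6 TPM, Ppara, which turns on fatty acid oxidation, at 259 ± 76.9 TPM, and Nr1h4, the bile acid receptor FXR, at 145 ± 32.8 TPM. Hnf4g was the lowest at 1.95 ± 1.2 TPM.

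The metabolic programmes of the proximal tubule were strongly represented. All 6 genes of gluconeogenesis and fructose use had at least 100 TPM. Beside Pck1, these included Pcx, pyruvate carboxylase (552 ± 21 TPM), G6pc, which releases free glucose (428 ± 45.2 TPM), Khk (231 ± 81.3 TPM) and Fbp1, fructose bisphosphatase (187 ± 43.4 TPM). Pcx was almost the same in each library, at 285, 277, 269, 283 and 291 CPM in WT 1 to WT 5, whereas Pck1 was lower in WT 3 and WT 4 than in the others. The group's sum was 16353, 15164, 9571, 10059 and 15228 TPM in WT 1 to WT 5. In fatty acid oxidation, 9 of 10 genes passed 100 TPM, among them Cpt1a, the carrier step into mitochondria (959 ± 192 TPM, or 421 TPM with the longest transcript), with Acadm, the medium-chain dehydrogenase, at 407 ± 25.8 TPM and Hadhb, part of the trifunctional protein, at 193 ± 31.4 TPM. Ammonia production was led by Glud1, glutamate dehydrogenase (1528 ± 54.5 TPM), with Slc38a3, the glutamine uptake transporter, at 200.1 ± 54 TPM.

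The brush border peptidases were lower. Of 10 genes 3 passed 100 TPM, namely Ggt1 (393 ± 112 TPM), Mep1a, a meprin (159 ± 21.2 TPM), and Dpp4 (107 ± 27.5 TPM), and Anpep, aminopeptidase N, was at 53.2 ± 6.51 TPM. Dpp4 was at 26.7 TPM with the longest transcript. In the vitamin D system, the receptor gene Vdr was at 1187 ± 168 TPM with the median length. This value rests on that length. With the longest transcripts all 4 genes of the list together summed to 705 TPM, of which Cyp24a1 held 286 TPM. The enzymes of the system differed widely between libraries. Cyp24a1, which breaks active vitamin D down, was at 707, 627, 293, 151 and 486 CPM in WT 1 to WT 5. Cyp27b1, which makes it, was at 183, 158, 78, 57.3 and 12.5 CPM in WT 1 to WT 5. Both were highest in WT 1, yet the lowest library was WT 4 for Cyp24a1 and WT 5 for Cyp27b1. Cyp24a1 exceeded Cyp27b1 in counts in every library.

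Genes of all later segments were captured as well. Of the 38 genes in the 6 distal lists, 37 were at 1 CPM or more in every library. In total they came to 3063, 3375, 4068, 5749 and 4318 TPM in WT 1 to WT 5. The 42 proximal genes came to 25776, 24971, 20130.4, 20560.4 and 23206 TPM. The ratio of proximal to distal sums was therefore 8.42, 7.4, 4.95, 3.58 and 5.37, highest in WT 1 and lowest in WT 4. Without mitochondrial genes and their copies in the total, the proximal sum still ran from 24447 TPM in WT 4 to 36461 in WT 1 and the distal one from 4333 in WT 1 to 6835 in WT 4. The ratio depends on which genes are in the lists and says nothing about cell numbers.

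In the thick ascending limb list, Umod led per length (966 ± 196 TPM), ahead of Egf, the growth factor precursor (334 ± 123 TPM), and Slc12a1, the cotransporter NKCC2 that loop diuretics block (286 ± 124 TPM). Slc12a1 was at 881, 996, 1203, 1845 and 693 CPM in WT 1 to WT 5. Egf was at 631, 730.1, 679.7, 1304 and 791 CPM in WT 1 to WT 5. Kcnj1, the potassium channel ROMK, was at 151, 150.3, 221, 338 and 207 CPM in WT 1 to WT 5. All 3 were highest in WT 4, as was Umod. The distal convoluted tubule was the most uneven segment. Slc12a3, the thiazide-sensitive cotransporter NCC, was at 277, 341, 505, 1474 and 729 CPM in WT 1 to WT 5, 5.31 times higher in WT 4 than in WT 1. Trpm6, the magnesium channel of the same cells, was at 21.4, 25.3, 43.3, 85.1 and 41.1 CPM in WT 1 to WT 5, in the same order but for WT 3 and WT 5. Pvalb, parvalbumin, stayed near 1 CPM (0.624 to 1.56 CPM). Klhl3, an adaptor that marks WNK kinases for breakdown, was at 27.6 ± 6.2 TPM.

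In the connecting tubule, Klk1, the kallikrein of this segment, led with 526 ± 87.7 TPM, but 40.5% of its 31-base sequences occur in other genes, the kallikrein family being close-knit. Calb1, the calcium buffer calbindin, was at 124, 135, 194, 370.1 and 194 CPM in WT 1 to WT 5. S100g, another calcium binding protein, varied little (69.4 to 91.7 CPM), while Slc8a1, the sodium-calcium exchanger, ranged over 10.1 to 65 CPM. In principal cells, Aqp2, the vasopressin-regulated water channel, was at 132, 135, 209, 175 and 281 CPM in WT 1 to WT 5. Aqp4 was highest in WT 4 (64.8 to 189 CPM), Aqp3 in WT 5 (41.9 to 84.5 CPM), and Scnn1g, a subunit of the sodium channel ENaC, was at 32.1 ± 11.3 TPM. In intercalated cells, the proton pump subunit Atp6v1b1 was at 125 ± 31.6 TPM, pendrin, Slc26a4, at 105 ± 34.9 TPM, and Slc4a9, a bicarbonate carrier, at 85.6 ± 17.7 TPM. Atp6v0d2, also of the pump, was at 41 ± 10.8 TPM. Each of these intercalated genes was lower in WT 1 and WT 2 than in the other 3 libraries. For Atp6v1b1 the gap was small, with 77.3 CPM in WT 2 and 79.3 in WT 5. Mitochondrial genes and their copies held 22% of the counts in WT 2 and 18.3% in WT 5. The order of these libraries for Atp6v1b1 thus depends on the total. Without those genes in the total, the sum of the intercalated list stayed lowest in WT 1 (435 TPM) and WT 2 (477 TPM). In the thin limb list, Slc14a2, a urea transporter, was at 8.98 ± 2.95 TPM, Fst, follistatin, at 5.01 ± 1.49 TPM and Sptssb at 3.53 ± 0.823 TPM. The distal transcription factors were also present, with Tfcp2l1 at 588 ± 150.0 TPM, Esrrb at 96.8 ± 28 TPM, Gata3 at 83.4 ± 22.8 TPM and Tfap2b at 73.3 ± 24.4 TPM.

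Ordered by the median TPM of their genes, the proximal shared list and the connecting tubule list were not separated. The latter was ahead in 3 of 5 libraries with the median length and in 1 with the longest transcript. The shared proximal list was above the S1 list, and the S1 list above the S2 list, in all 5. From S2 down, through thick ascending limb, intercalated and principal cells, the ranges of neighbours overlapped, and their order turned with the length for intercalated (35 ± 10.4 TPM) and principal cells (28.6 ± 9.05 TPM). By the sum instead of the median, the shared proximal genes stood far above all other lists, and S3, thick ascending limb, S1 and connecting tubule followed with 1978, 1777, 1109 and 1070.1 TPM on average. With the longest transcript the order of these 4 turned, to thick ascending limb (1843), connecting tubule (1373), S3 (1055) and S1 (770.5 TPM).

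**Figure D4:**
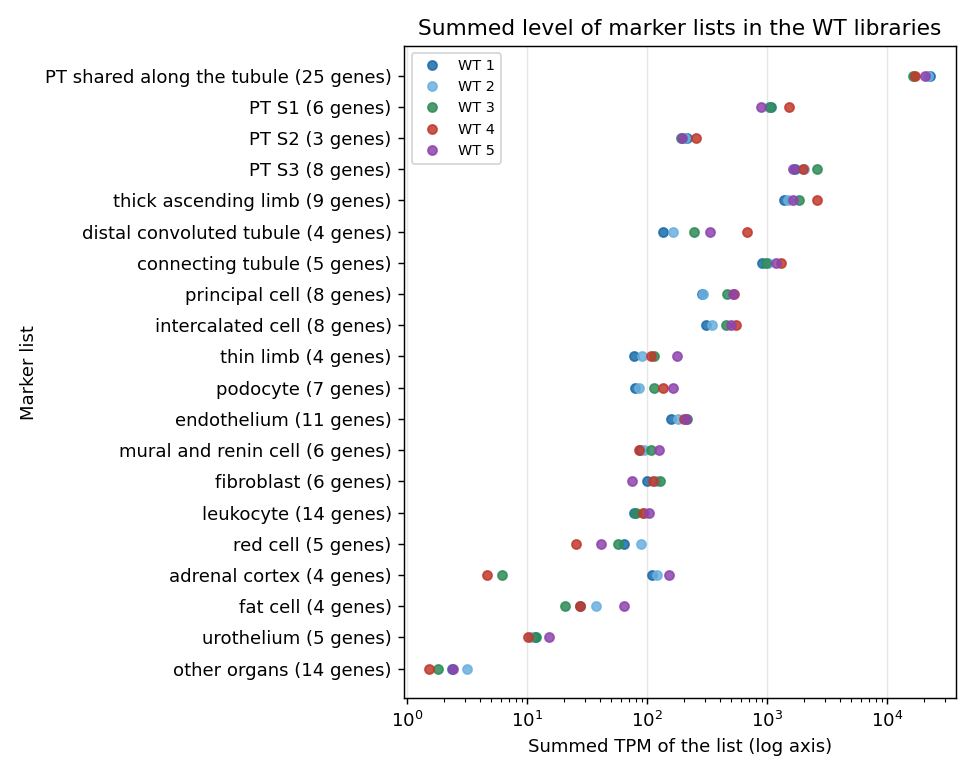
Summed TPM (log axis) of each marker list in WT 1 to WT 5, with 1 point per library and the number of genes in the list beside its name. The shared proximal list is far above the rest, the adrenal list splits the libraries into 3 high and 2 low, and the list of other organs lies near the bottom.

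Markers of cells outside the tubule were below the shared proximal and thick ascending limb lists in sum, but not below all tubule lists, since the thin limb list summed to 113 ± 38 TPM. Podocyte genes summed to 115 ± 34.9 TPM, with Podxl, podocalyxin, at 62.3 ± 20.3 TPM, Synpo at 13.4 ± 3.62 TPM and Cdkn1c at 9.1 ± 2.92 TPM; the defining Nphs1, nephrin, was at 8.48, 8.49, 9.18, 11 and 18.4 CPM in WT 1 to WT 5. Endothelial genes summed to 192 ± 23.3 TPM, led by Flt1, a VEGF receptor (43.3 ± 11.2 TPM), Egfl7 (26.7 ± 7.24 TPM), Eng (21.9 ± 4.15 TPM) and Pecam1 (21.6 ± 1.07 TPM), and all 11 were at 1 CPM or more everywhere. Fibroblast genes summed to 106 ± 20.7 TPM, with Col3a1, a fibrillar collagen, at 40.4 ± 12.5 TPM and Lum under 1 TPM, and mural and renin cell genes to 99.9 ± 16.4 TPM, in which Ren1, renin, was at 30.8, 31.4, 36.5, 14.7 and 37.6 CPM in WT 1 to WT 5. Leukocyte genes summed to 89.1 ± 10.2 TPM. Of these 14, the macrophage genes Csf1r (31.9 ± 3.63 TPM) and Cd74, also of other antigen-presenting cells (28 ± 4.04 TPM), led, and the lymphocyte genes Cd3e, Cd79a, Ms4a1 and Nkg7 were under 1 TPM. Globin genes of red cells came to 63.9, 88.4, 57, 25.6 and 41.4 TPM and were lowest in WT 4; Hba-a1 and Hba-a2 share most of their sequence, and Hbb-bt and Alas2 were under 1 TPM. Of the urothelial genes 3 of 5 (Upk2, Upk3a and Krt5) were under 1 TPM, and Upk1a was at 5.47 ± 1.79 TPM.

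Genes of other organs were nearly absent. All 14, from muscle, nerve, liver, pancreas and testis, were under 1 TPM, and 3 of them (Prm1, Tnp1 and Prss2) had no count in any library. The sum was 2.37, 3.12, 1.79, 1.52 and 2.39 TPM, which sets the level that such foreign transcripts reached. The adrenal cortex was the exception. Star, which carries cholesterol into mitochondria for steroid synthesis, was at 146, 156, 11, 8.12 and 208 CPM in WT 1 to WT 5. Cyp11b1, which makes corticosterone, was at 69.1, 76.7, 0.303, 0.184 and 71.9 CPM in WT 1 to WT 5, and Cyp11a1, the first steroid enzyme, at 17.4, 20.01, 0.404, 0.294 and 24 CPM in WT 1 to WT 5. The defining Cyp11b1 was thus near 0 in WT 3 and WT 4 and at similar levels in WT 1, WT 2 and WT 5. Cyp11b2, which makes aldosterone, had no count in WT 3 and WT 4, which allows up to 3 counts each, and was at 2.49, 2.28 and 5.46 CPM in the others; it shares 25.3% of its 31-base sequences with other genes. The adrenal genes together summed to 109.7, 120.2, 6.09, 4.57 and 151 TPM, far below the shared proximal list, and their part in other differences between libraries was not tested. Fat cell genes, led by Plin1 (21.9 ± 12.5 TPM), were highest in WT 5, with 27.7, 36.9, 20.6, 27.6 and 64.4 TPM in WT 1 to WT 5.

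Genes known to differ between male and female kidneys were compared with the labelled sex. Of 8 male-biased genes, Kap carried nearly the whole sum. Cyp2e1, a cytochrome of drug metabolism, was at 51.5, 50.05, 29.2, 49.6 and 183 CPM in WT 1 to WT 5, with WT 5 far above the rest, and Cyp2d9 was at 19 ± 7.2 TPM. Slco1a1 (0.0843 ± 0.0317 TPM) and Cyp4a12a (0.466 ± 0.211 TPM) were under 1 TPM. Of the female-biased genes, Cyp4a14, which hydroxylates fatty acids, was at 703, 667, 759, 543 and 437 CPM in WT 1 to WT 5. Prlr, the prolactin receptor, was at 78.7 ± 16.3 TPM, Slc7a12 at 49.4 ± 10.9 TPM and Cyp2a4 at 10.1 ± 4.01 TPM. The Y chromosome genes Ddx3y and Eif2s3y had at most 0.185 and 0.0926 CPM in any library, while Uty had 1.69 to 2.57 CPM and Kdm5d 7.97 to 10.3 CPM. Per length Kdm5d (2.79 ± 0.295 TPM) was the 1 gene of the 4 above 1 TPM.

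Short-lived transcripts that respond to stimuli within minutes were included as a class, as their RNA is made and lost quickly. All 14 immediate early genes in the list were measured. Klf6 was at 159, 154, 162, 93.6 and 178 CPM in WT 1 to WT 5. Dusp1, a phosphatase that ends kinase signals, was at 198, 181, 144, 37.2 and 206 CPM in WT 1 to WT 5. Zfp36, which speeds the decay of cytokine mRNAs, was at 136, 125, 81.2, 23.5 and 143 CPM in WT 1 to WT 5, and Jun at 75.8, 69.9, 56, 17.7 and 76.3 CPM in WT 1 to WT 5. All 14 were lowest in WT 4 and highest in WT 5. Of the 4246 genes with at least 50 CPM, 24% were lowest in WT 4 and 25% highest in WT 5. Fosb (0.855 ± 0.296 TPM) was the 1 member under 1 TPM, and Fos itself was at 3.8 ± 1.63 TPM. Of the injury genes, Spp1, osteopontin, was at 539, 504, 422, 400.5 and 399.7 CPM in WT 1 to WT 5, Cdkn1a, the cell cycle inhibitor p21, at 284, 262, 196, 108 and 263 CPM in WT 1 to WT 5, and Clu, clusterin, at 44, 45, 46.8, 52.2 and 90.3 CPM in WT 1 to WT 5. Havcr1, the injury marker KIM-1, was at 9.23, 7.93, 0.202, 0.735 and 4.6 CPM in WT 1 to WT 5, below 1 CPM in WT 3 and WT 4. Lcn2, another injury marker, was at 4.78 ± 1.58 TPM.

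Housekeeping classes were moderate in level. The 86 cytosolic ribosomal protein genes had a median of 59 ± 5.87 TPM and summed to 6048, 5984, 5064, 4758 and 6080.4 TPM in WT 1 to WT 5, led by Rpl4 (232 ± 15.6 TPM), Rps24 (175 ± 18.7 TPM) and Rpl6 (167 ± 18.8 TPM). Of them 74 were lower in both WT 3 and WT 4 than in any of the other 3 libraries. The same held for 13 of 14 immediate early and 11 of 13 mitochondrial genes, but for 8 of 42 proximal and 2 of 38 distal genes. The share over all genes was not worked out, so neither these counts nor the contrast between them is read as a result about any list. Many of the ribosomal protein genes have processed pseudogenes with nearly the same sequence. The 95 nuclear genes of oxidative phosphorylation had a median of 49.9 ± 6.56 TPM and summed to 7622, 7629, 7203, 7387 and 8234 TPM, a narrower range, led by Atp5b (934 ± 37.1 TPM), Sdha (592 ± 43.6 TPM) and Atp5a1 (413 ± 26.5 TPM). The 13 mitochondrial mRNAs summed to 208497 ± 47749.5 TPM. The replication histone genes, whose mRNAs normally end without a poly-A tail, were almost absent: 24 of 27 were under 1 TPM in this poly-A selected RNA. Their symbols were looked up under their present names after the table had been seen, since the older names in the fixed pattern occur in no row.

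Noncoding RNA could be followed only through pseudogenes and a few other classes. None of the 23 symbols fixed for long noncoding RNA, small structured RNA and mitochondrial rRNA matched a row of the table, and these classes were not analysed here. Of 12503 pseudogene symbols 287 were at 1 CPM or more in every library. The 10 highest noncoding symbols were 4 of the mitochondrial copies, Gm28661 (6663 ± 3199 CPM), Gm29216 (3636 ± 1217 CPM), Gm28438 (716 ± 280.0 CPM) and Gm28437 (652 ± 552 CPM), and 6 others. Gm46223, a processed pseudogene at chr10:50422134-50422808, was at 3353, 4616, 2970.2, 4138 and 4712 CPM in WT 1 to WT 5. It shares 8.68% of its 31-base sequences with another gene, Chd9, and held 0.521 to 0.765 times its counts in the 5 libraries. The remaining 5 were 6820431F20Rik (337 ± 19.9 CPM), Gm11225 (179 ± 28.8 CPM), AW822252 (152 ± 36.8 CPM), Gm5373 (125 ± 14.8 CPM) and 2610005L07Rik (117 ± 12.6 CPM). The first of these varied little, with an SD of 0.0592 times its mean, and shares 24.5% of its sequences, mainly with 2610005L07Rik.

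Between libraries a typical gene varied by 0.148 times its mean (median SD over mean of CPM, 4246 genes with at least 50 CPM), and 23.7% varied by less than 0.1. The 10 most variable genes were Hmox1, Akr1b7, Star, Cyp2e1, Gm28437, Slc12a3, Cyp27b1, Mt2, Akr1c19 and Acnat2, with values from 0.645 to 1.05. Hmox1, heme oxygenase, which frees iron from heme, was at 96.7, 70.5, 32, 27.2 and 292 CPM in WT 1 to WT 5. Mt2, a metallothionein that binds zinc and other metals, was at 127, 117, 60.9, 36.8 and 234 CPM in WT 1 to WT 5. Both were lowest in WT 4 and highest in WT 5. Akr1b7, an aldo-keto reductase abundant in the adrenal cortex, was at 66.4, 68.9, 3.9, 1.29 and 111 CPM in WT 1 to WT 5, with the same split of libraries as Star. Akr1c19 was at 51.8, 53.7, 69.4, 166 and 43.3 CPM in WT 1 to WT 5, and Acnat2, which conjugates fatty acids with amino acids, was at 61.6, 54.9, 75.7, 165 and 35.1 CPM in WT 1 to WT 5. Both were over 2 times higher in WT 4 than in any other library. Scaled to library totals, the 10 least variable were Nadk, Vps11, Ctbp1, Brd7, Letmd1, Atp6ap2, Cdkn1b, Man2b1, Rbm15 and Ldha. Their spread was 0.0120 to 0.0248 times the mean. Another scaling, TMM, took 35080551 instead of 37362311 as the total of WT 1 and 24945105 instead of 23068023 for WT 5. Such small spreads depend on the scaling, and the order of genes by spread was not worked out with TMM. Nadk, which makes NADP from NAD, was at 122, 123, 124, 121 and 124 CPM in WT 1 to WT 5, and Ctbp1, a corepressor, at 84.3, 82.1, 83.7, 82.5 and 80.8 CPM in WT 1 to WT 5.

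**Figure D5:**
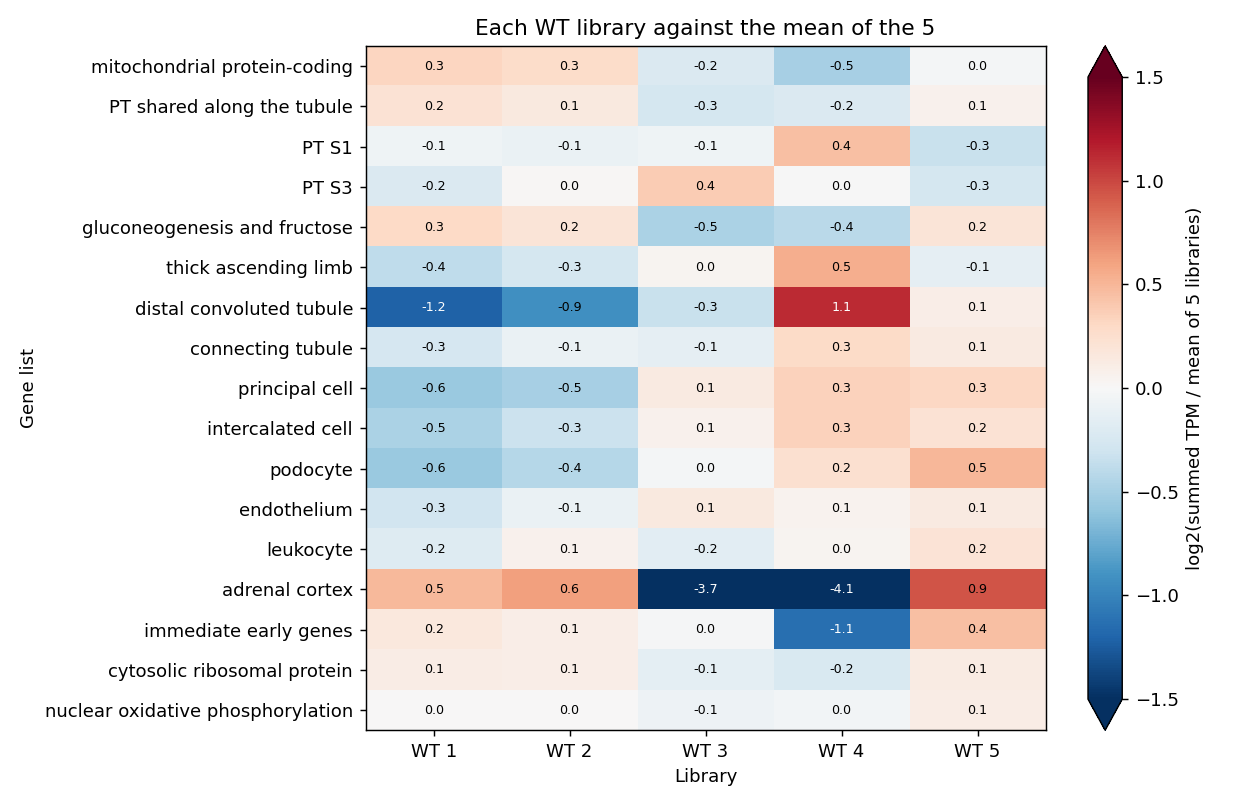
Summed TPM of each list in each WT library over the mean of the 5, on a log2 scale, with red above and blue below the mean. WT 1 and WT 2 resemble each other, WT 4 is high in distal convoluted tubule genes and low in immediate early and mitochondrial genes, and the adrenal list is low in WT 3 and WT 4, beyond the colour scale.

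Across lists, WT 1 and WT 2 had a similar pattern, with high mitochondrial and gluconeogenic sums and low distal, podocyte and endothelial sums. Without mitochondrial genes and their copies in the total, the endothelial sum of WT 2 (248 TPM) was above that of WT 4 (238 TPM). The connecting tubule sum was then lowest in WT 3 (1215 TPM). The podocyte sum and that of all distal lists stayed lowest in WT 1 and WT 2. Distal genes were highest in WT 4 or WT 5 in all 38 cases (20 in WT 4 and 18 in WT 5), and 26 were lowest in WT 1. Of the 4246 genes with at least 50 CPM, 43.6% were highest in WT 4 and 25% in WT 5, and 40.2% were lowest in WT 1. Proximal genes were less uniform, being highest in WT 1 for 10, in WT 3 for 8 and in WT 4 for 17 of 42. In WT 5, 3 of the 42 were highest and 18 lowest, against 25% and 18.4% of the 4246 genes. The ratio of Slc12a3 to Slc12a1 counts, distal convoluted tubule over thick ascending limb, was 0.315, 0.343, 0.42, 0.799 and 1.05 in WT 1 to WT 5, so the distal segments did not change as 1 block. No order among 5 libraries of 1 group was tested.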

How the data were processed

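Kidney RNA tagged through UPRT was biotinylated, captured on streptavidin, poly-A selected and sequenced in paired reads of 100 bases. The authors deposited 1 table of estimated counts, not normalized, for 35013 gene symbols; the submitters' processing notes name kallisto 0.44.0, bcl2fastq 2.19, DESeq2 and GRCm38, whereas the methods describe STAR and HTSeq. The 5 WT columns were used. Symbols were matched to GENCODE mouse release M21 (GRCm38) for class, position and length. CPM is counts per 1000000 of the library total. TPM divides by the median annotated transcript length, and the longest transcript was tried. Shared sequence is the percent of a gene's 31-base sequences also in other genes. Levels are means ± SD over 5 libraries; nothing was tested, and no correlation across the 5 libraries is reported. Gene lists and the rule for named genes (highest levels, 4 leading members of each list, largest and smallest spread, markers) were chosen with earlier results of these data known. Havcr1 and other list members beyond the 4 leading ones were chosen after their values were seen. Tools were edgeR 4.0.16 for variation and TMM, DESeq2 1.42.0 for size factors, Python 3.11.15 and pandas 2.3.3; the spread estimate and the shares were tested on simulated data. Totals ran from 23068023 to 37362311 counts. The ribosomal, oxidative phosphorylation and histone lists are described by counts and leading members. Some genes that the rule names are not reported here. The alternatives were another length, total, filter, scaling, and each library left out.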

Additional observations from a re-analysis of the deposited data

Results flagged for a closer look

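Among 229 values looked at (list sums, class shares and genes named in the text or leading their lists, with a mean of at least 1 CPM), 13 had 1 library whose gap to its nearest neighbour was over 0.71 of the whole range of the 5. Chance alone would do this in about 1 group in 20, and 13 of 229 is near that share. Hmox1, Cyp2e1, Akr1c19 and Brd7 below were moreover named for their large or small spread in these same data. All 13 concerned single genes, and the far library was WT 4 or WT 5. In CPM, with the range of the other 4 libraries, those with WT 4 apart were Akr1c19 (166 against 43.3 to 69.4), Slc5a12 (548 against 178 to 284), Slc2a2 (280.1 against 184 to 202), Egf (1304 against 631 to 791), Calb1 (370.1 against 124 to 194), Klf6 (93.6 against 154 to 178), Brd7 (49.3 against 50.9 to 51.4) and Gatm (74.3 against 35 to 37.3). WT 4 was above the others for each of these genes except Klf6 and Brd7, where it was below. The gap of Brd7 was small, and it was not looked at with another scaling. Those with WT 5 apart, each time above, were Hmox1 (292 against 27.2 to 96.7), Cyp2e1 (183 against 29.2 to 51.5), Cdkn1c (8.28 against 4.19 to 4.69), Clu (90.3 against 44 to 52.2) and Nphs1 (18.4 against 8.48 to 11). Egf and Calb1 belong to later segments and Slc5a12 and Slc2a2 to S1. WT 4 also had the largest share of long transcripts and the lowest mitochondrial share; their part in these values was not tested.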

How the results depend on the processing

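Of the values recomputed under other settings, 180 moved by less than the spread between libraries (or, for counts and spreads, by less than 1.5 times) and 28 moved further. Leaving out 1 of 5 libraries cannot shift a mean by as much as that spread. Means recomputed in that way are thus among the 180 by construction and are no check. With the longest transcript, summed TPM was 770.5 for PT S1, 304 for PT S2, 1055 for PT S3, 6619.6 for cytosolic ribosomal protein. With mitochondrial genes out of the total, summed TPM was 29201 for all PT lists, 25039.5 for PT shared along the tubule, 1397 for PT S1, 268 for PT S2, 2497 for PT S3, 7112 for cytosolic ribosomal protein and the percent of counts was 16.7 for 100 highest genes. Without genes that share over 20% of their 31-base sequences, summed TPM was 29014 for all PT lists, 24844 for PT shared along the tubule, 1406 for PT S1, 269 for PT S2, 2493 for PT S3, 2288 for cytosolic ribosomal protein and the percent of counts was 8.61 for mitochondrial genes, 0.606 for pseudogenes, 23.4 for 100 highest genes. These follow from the other length, the smaller total or, for mitochondrial, ribosomal and pseudogene values, from leaving out those genes themselves. The longest transcript also turned the order of some lists, as given with their levels. Lrp2, Slc34a1, Kap and Umod rose above their spread with the same 2 smaller totals and no other. Proximal stayed above distal sums in every setting, with a main ratio of 5.94. It was 4.67 with the longest transcript and 6.91 without genes that share over 20% of their 31-base sequences. Taking mitochondrial genes out of the total cancels in this ratio and is no check. The ratio was 5.32 to 6.53 when each library was left out in turn. So left out, the mitochondrial percent was 15.9 to 18.3, the median SD over mean of genes with at least 10 counts in each library 0.147 to 0.188 (main 0.177) and the common variation 0.157 to 0.218, the last 2 lowest without WT 4. With WT 1 and WT 2 averaged as 1 library, chosen after seeing the data, these were 16, 0.181 and 0.212. TMM and DESeq2 factors moved no marker's mean beyond its spread, which is no check. They were set to the same geometric mean as the library totals, so a mean over the 5 libraries could hardly move. No paired analysis was possible because only 1 group was used and no test was made. At these depths a gene without counts may still have up to 3.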
